A study of Mus musculus with 6 samples.

Results

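A set of 10 genes that answer to mechanical tension on the cell was followed in pancreatic islets, which hold the insulin-making beta cells: Srf, Actb, Actg1, Acta2, Tagln, Vcl, Ctgf, Cyr61, Ankrd1 and Myl9. They were chosen by symbol as the serum response factor gene and known targets of SRF with its MRTF coactivators or of YAP with TEAD. All 10 had an entry among the 24407 genes counted, and all 10 passed the filter on low counts. Islets of wild-type mice (WT) were compared with islets of mice that make lamin C but no lamin A from Lmna (LCS). All animals were of the C57BL/6 strain, were 70 weeks old and ate regular chow. Each group had 3 messenger RNA libraries. Every library was a pool from 3 mice, and replicates are therefore distinct pools of animals. The sample titles mark the LCS libraries as KIKI. Beyond that the labels give neither sex nor further detail of the LCS allele, and all islet cells of these mice were sampled together. In such bulk samples fewer cells of a type and less RNA per cell cannot be told apart.

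When actin monomers are built into filaments, the MRTF coactivators are released from actin, enter the nucleus and switch on SRF targets, many of which code for actins and actin-binding proteins. YAP and its relative TAZ enter the nucleus in spread or stretched cells and act through TEAD factors, with Ctgf, Cyr61 and Ankrd1 as the usual readouts. Both routes respond to tension in the actin cytoskeleton, which is coupled to the nucleus, where A-type lamins form part of the supporting meshwork. In the pancreas, Acta2, Tagln and Myl9 are also known as genes of smooth muscle cells, pericytes and activated stellate cells.

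The libraries held 26123654 to 68036676 counts. The 3 rows dominated by ribosomal RNA (Rn45s, Lars2 and Mir6236) took 52.3 to 54.1% of the LCS counts and 7.64 to 18.5% of the WT counts. The CPM values below (each gene's counts relative to library size) are therefore scaled by the TMM method. The ribosomal shares did not overlap between genotypes, so differences in how the libraries turned out cannot be told apart from genotype. TMM scales whole libraries and does not remove a trend with transcript length. Beta cell markers summed to 149014 to 264416 CPM. WT replicate 1 stood apart: its median absolute log2 difference from the mean of the other WT libraries was 0.327 over tested genes, against 0.135 to 0.280 for the other 5 libraries and their group mates. Lmna itself had 62.4, 62.0 and 78.9 CPM in the LCS libraries, against 61.3, 27.3 and 21.0 CPM in WT. Both lamins are counted under Lmna, so its level does not check the genotype. The members' fold changes are therefore given with all 6 libraries and without WT replicate 1. That library was singled out from these same data, and leaving it out also leaves fewer WT libraries. Calls made without it are therefore descriptions and not separate tests.

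None of the 10 genes passed the test between genotypes with all 6 libraries (edgeR quasi-likelihood test, adjusted p under 0.05). Over all 14539 tested genes 2.06% were called higher and 0.144% lower in LCS. At an unadjusted p under 0.05, 1 member was higher (Acta2) and 0 were lower, against 13.3% and 10.8% of all tested genes. DESeq2 gave an adjusted p for 9 members (not Myl9) and called 0, against 6.99% of genes higher and 4.26% lower. Sample quality weights in limma called 6 higher and 0 lower, where 19.9% of all genes were called higher and 16.3% lower. An offset for transcript length called 0 members, with 0.176% of genes higher and 0.022% lower. The median log2 fold change of the members was 0.37, against 0.01 over all tested genes. On leaving out WT replicate 1, Actb, Actg1 and Cyr61 were called higher in LCS and none lower, in a fit that called 12.5% of all genes higher and 7.68% lower. The members' median was then 0.83, against 0.04 over all genes. Leaving out any other single library called no member, and the members' median was then 0.15 to 0.46. With the length offset the members' median was 0.16, and 7 of the 10 had a positive log2 fold change, against 9 in the main test.

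**Figure D1:**
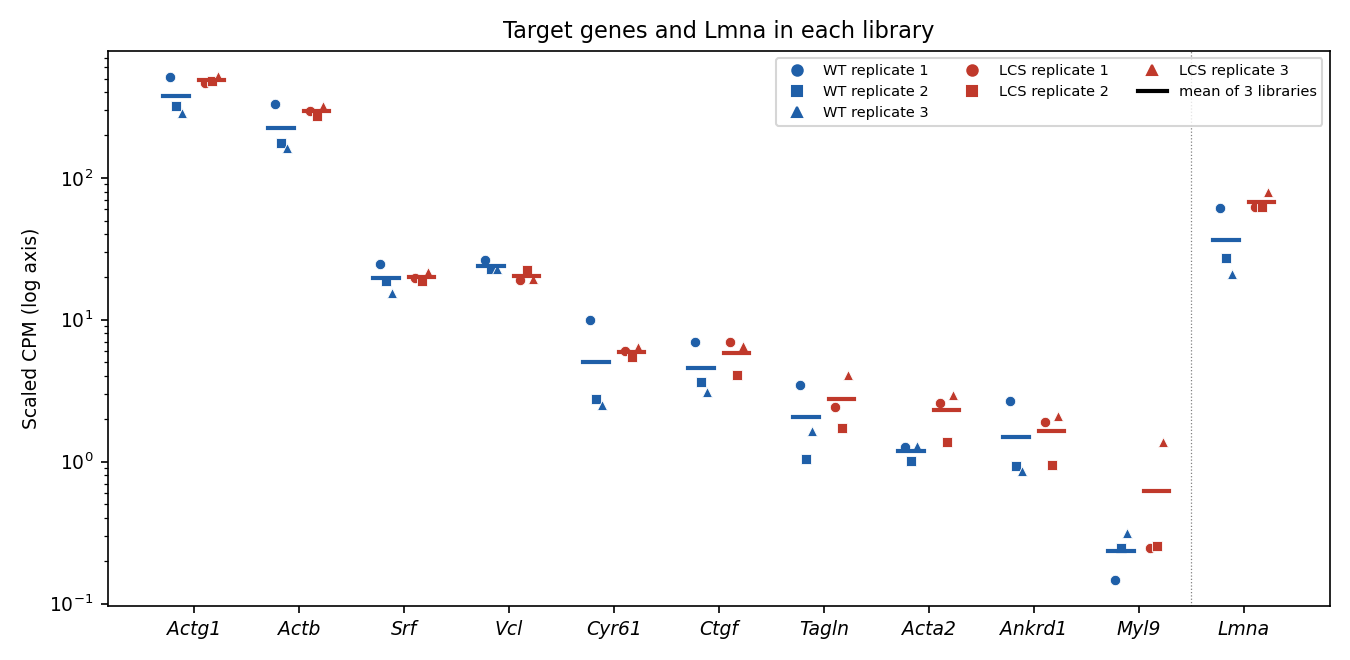
Scaled CPM (log axis) of the 10 target genes, ordered by level per kilobase, and of Lmna per library (WT blue, LCS red), with a bar at the mean of 3 libraries. WT replicate 1 (blue circles) lies above the LCS mean for Actb, Actg1, Srf, Vcl, Cyr61, Ctgf, Tagln and Ankrd1, while the other WT libraries lie below that mean for each of these but Vcl.

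Srf codes for the transcription factor that binds CArG boxes, and its own promoter carries such boxes. In the order of replicates 1 to 3, used throughout, Srf had 19.5, 18.9 and 21.8 CPM in LCS and 24.8, 18.9 and 15.4 CPM in WT. The LCS values lay inside the range of the WT values. The log2 fold change was 0.03 (SE 0.19, edgeR adjusted p = 0.943), with a 95% interval of -0.40 to 0.45, and without WT replicate 1 it was 0.23 (edgeR adjusted p = 0.345).

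Actb and Actg1 code for the cytoplasmic beta and gamma actins, which build the filaments of nonmuscle cells. Actb had 296, 274 and 321 CPM in LCS and 331, 177 and 162 CPM in WT. Actg1 had 469, 482 and 522 CPM in LCS and 514, 321 and 287 CPM in WT. For both genes the LCS libraries lay close together, WT replicates 2 and 3 lay below all of them, and WT replicate 1 lay among or above them. With all libraries Actb was at 297 ± 23.4 CPM in LCS and 223 ± 93.6 in WT, and Actg1 at 491 ± 27.4 and 374 ± 123 (SD, n = 3). The log2 fold changes were 0.41 (SE 0.25, 95% interval -0.15 to 0.97) for Actb and 0.39 (SE 0.22, -0.09 to 0.87) for Actg1, with edgeR adjusted p of 0.342 and 0.293. Both passed the test without WT replicate 1, Actb at 0.81 (1.75-fold, SE 0.16, edgeR adjusted p = 0.00721) and Actg1 at 0.69 (1.62-fold, SE 0.16, edgeR adjusted p = 0.0136). With all libraries and an offset for transcript length, Actb was at 0.23 and Actg1 at 0.21 (edgeR adjusted p = 0.568 and 0.528). The coding sequences of these actins are nearly the same and both have processed pseudogenes, so reads of one may be counted for another.

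The promoters below are shown for their matches to the motifs that SRF and TEAD factors bind. A match is a description and not a shown binding site. RefSeq windows of GRCm38.p6 were matched for 7 members by gene number and are printed for 5, as the 250 bases before the annotated start, 5′ to 3′ on the gene's strand. Capitals mark CArG boxes in Srf and Actg1, and in Acta2 the CArG-like elements, whose core holds 1 G or C. They also mark the TEAD motif GGAATG or its reverse complement CATTCC in Acta2, Cyr61 and Ankrd1.
Srf (chr17:46556163-46556412, - strand): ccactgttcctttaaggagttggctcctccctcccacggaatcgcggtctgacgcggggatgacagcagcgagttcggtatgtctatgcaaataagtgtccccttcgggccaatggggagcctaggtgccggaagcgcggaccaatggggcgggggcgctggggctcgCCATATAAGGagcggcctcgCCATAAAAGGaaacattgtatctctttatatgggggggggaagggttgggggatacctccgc
Actg1 (chr11:120348496-120348745, - strand): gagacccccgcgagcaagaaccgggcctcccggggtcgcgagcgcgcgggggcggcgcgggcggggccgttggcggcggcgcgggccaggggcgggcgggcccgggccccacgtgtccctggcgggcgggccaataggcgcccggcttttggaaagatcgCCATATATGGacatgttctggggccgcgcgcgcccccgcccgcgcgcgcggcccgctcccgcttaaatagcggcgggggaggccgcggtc
Acta2 (chr19:34255374-34255623, - strand): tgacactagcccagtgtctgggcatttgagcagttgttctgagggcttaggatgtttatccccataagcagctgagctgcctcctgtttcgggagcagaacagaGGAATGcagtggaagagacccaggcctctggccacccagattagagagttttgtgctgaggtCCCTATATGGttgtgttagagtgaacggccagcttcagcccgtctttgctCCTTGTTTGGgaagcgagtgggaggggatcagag
Cyr61 (chr3:145649986-145650235, - strand): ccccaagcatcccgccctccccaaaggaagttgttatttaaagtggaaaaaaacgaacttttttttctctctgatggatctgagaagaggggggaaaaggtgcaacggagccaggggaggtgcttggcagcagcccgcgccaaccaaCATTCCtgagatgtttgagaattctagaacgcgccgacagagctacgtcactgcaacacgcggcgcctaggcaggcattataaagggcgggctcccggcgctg
Ankrd1 (chr19:36119845-36120094, - strand): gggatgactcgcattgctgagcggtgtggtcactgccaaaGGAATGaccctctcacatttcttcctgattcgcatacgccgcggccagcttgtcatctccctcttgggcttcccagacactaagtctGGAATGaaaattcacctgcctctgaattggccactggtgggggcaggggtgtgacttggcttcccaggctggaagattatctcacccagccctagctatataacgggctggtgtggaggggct

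On either strand 4 of the 7 windows held a CArG box (Srf, Actg1, Vcl and Myl9), against 1.47% of all 32851 windows. Srf held CCATATAAGG and CCATAAAAGG, starting 82 and 62 bases before the annotated start, and Actg1 held CCATATATGG at 90 bases. Acta2 held no CArG box in this window but 2 CArG-like elements, CCCTATATGG and CCTTGTTTGG, at 84 and 34 bases; 7.24% of all windows hold such an element. The TEAD motif was found in 4 of the 7 (Acta2, Vcl, Cyr61 and Ankrd1), against 12.6% of all windows, and no motif overlapped another in these genes. The members were chosen as known targets, so these shares describe that choice. Among all tested genes, 159 had a CArG box in the window, and of these 3 were called higher and 0 lower (median log2 fold change 0.03). With that WT library left out, 19 of the 159 were higher and 12 lower (median 0.06). Of 1457 tested genes with a TEAD motif 26 were called higher and 1 lower (median 0.02). That became 178 higher and 100 lower (median 0.06) with the WT library left out. These counts stand beside 2.06% and 0.144% of all tested genes called higher and lower with 6 libraries, and 12.5% and 7.68% without WT replicate 1.

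Acta2, Tagln and Myl9 code for the smooth muscle alpha actin, for the actin-bundling protein transgelin and for a regulatory light chain of smooth muscle and nonmuscle myosin. Acta2 had 2.59, 1.37 and 2.97 CPM in LCS (74, 70 and 93 counts) and 1.27, 1.01 and 1.28 CPM in WT (61, 41 and 49 counts). All LCS libraries lay above all WT libraries, which was so for 14.6% of all tested genes. LCS replicate 2 lay closest to the WT values, and its 95% Poisson interval of 1.07 to 1.74 CPM, which covers counting error only, included the highest WT value. Means were 2.31 ± 0.831 and 1.19 ± 0.152 CPM (SD, n = 3). The log2 fold change was 0.95 (1.93-fold, SE 0.34, 95% interval 0.18 to 1.71) and missed the threshold (edgeR adjusted p = 0.142). WT replicate 1 did not stand apart for this gene, and without it the log2 fold change was 0.9965 (edgeR adjusted p = 0.0904).

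Tagln had 2.41, 1.73 and 4.08 CPM in LCS and 3.49, 1.04 and 1.65 CPM in WT. LCS replicate 3 was the highest and WT replicate 1 came next, and the groups overlapped. The log2 fold change was 0.40 (SE 0.46, 95% interval -0.63 to 1.42, edgeR adjusted p = 0.624). It was 1.02 without WT replicate 1 and -0.0032 without LCS replicate 3 (edgeR adjusted p = 0.0957 and 0.998).

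Myl9 was the least abundant member. Its counts were 7, 13 and 43 in LCS and 7, 10 and 12 in WT, or 0.245, 0.255 and 1.37 CPM against 0.146, 0.247 and 0.313 CPM. LCS replicate 3 alone was high, and the other 5 libraries lay together. The log2 fold change of 1.39 (SE 0.73, 95% interval -0.23 to 3.01, edgeR adjusted p = 0.272) was 0.12 without that library (edgeR adjusted p = 0.951). Myl9 passed the filter only narrowly: it was removed once the ribosomal rows were left out before filtering.

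Vcl codes for vinculin, which links actin filaments to integrins and cadherins under load. It had 19.1, 22.5 and 19.3 CPM in LCS and 26.3, 22.7 and 22.8 CPM in WT. Vcl was the only member with all LCS libraries below all WT libraries, which held for 12.0% of tested genes, and LCS replicate 2 missed the lowest WT library by a margin inside its counting error (95% Poisson interval 21.2 to 23.9 CPM). The log2 fold change was -0.23 (SE 0.15, 95% interval -0.57 to 0.10, edgeR adjusted p = 0.358). Vcl has the longest transcript of the 10 (5267 nt), and with an offset for transcript length its log2 fold change was -0.013.

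Ctgf and Cyr61, also called Ccn2 and Ccn1, code for secreted matricellular proteins, and Ankrd1 codes for an ankyrin repeat protein of muscle and stressed cells. All are standard readouts of YAP. Ctgf had 6.92, 4.10 and 6.57 CPM in LCS and 6.92, 3.65 and 3.08 CPM in WT. Cyr61 had 6.01, 5.50 and 6.38 CPM in LCS and 9.88, 2.76 and 2.51 CPM in WT. For Cyr61 WT replicate 1 was the highest of the 6 libraries and WT replicates 2 and 3 were the lowest, with the LCS libraries between. Ankrd1 had 1.89, 0.943 and 2.11 CPM in LCS and 2.68, 0.938 and 0.862 CPM in WT, and here LCS replicate 2 lay with the low WT libraries.

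With all libraries the log2 fold changes of these YAP targets were 0.35 (SE 0.33) for Ctgf, 0.23 (SE 0.46) for Cyr61 and 0.11 (SE 0.49) for Ankrd1, with edgeR adjusted p of 0.533, 0.784 and 0.907. Their 95% intervals reached from -0.38 to 1.09, from -0.79 to 1.25 and from -0.98 to 1.20. Each interval thus held 0 as well as a 2-fold increase. Cyr61 without WT replicate 1 passed the test at 1.18 (2.26-fold, SE 0.22, edgeR adjusted p = 0.00629). Ctgf was then at 0.79 and Ankrd1 at 0.85 (edgeR adjusted p = 0.0601 and 0.17). Without WT replicate 3 the log2 fold changes of Cyr61 and Ankrd1 were -0.091 and -0.16.

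**Figure D2:**
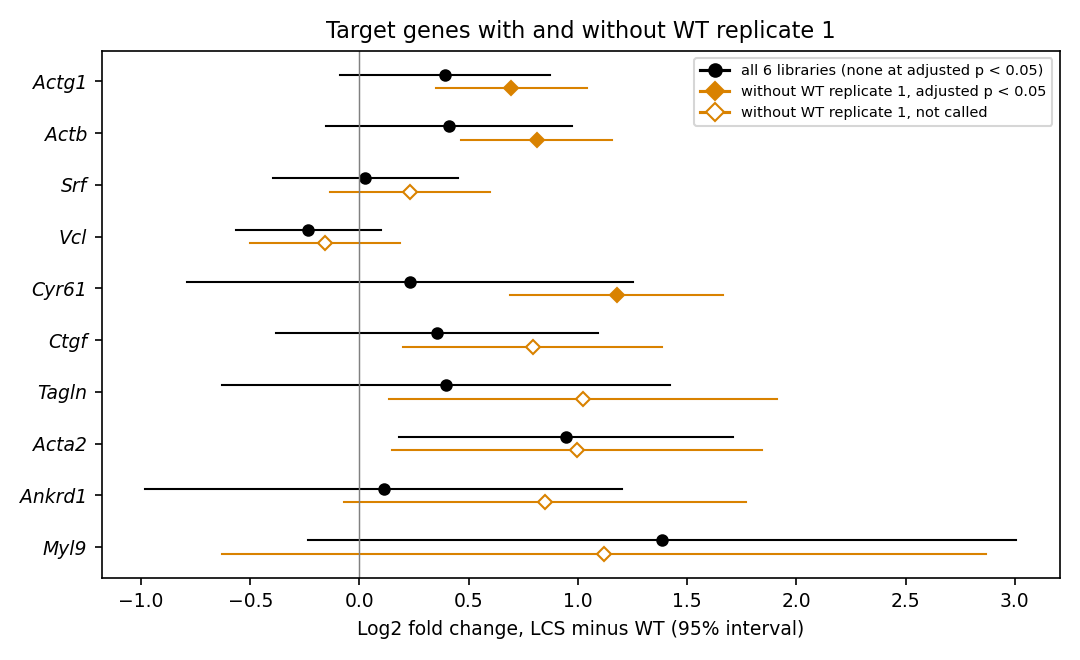
Each target gene's log2 fold change between LCS and WT with its 95% interval, from all 6 libraries in black and without WT replicate 1 in orange, filled where the edgeR adjusted p was under 0.05. Actb, Actg1 and Cyr61 are filled, at 0.81, 0.69 and 1.18, and the interval of Myl9 is the widest.

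The members thus differed in how far WT replicate 1 lay from the other WT libraries. On the log2 CPM scale it lay above their mean by 1.89 for Cyr61, 1.52 for Ankrd1, 1.38 for Tagln, 1.03 for Ctgf, 0.97 for Actb, 0.76 for Actg1 and 0.54 for Srf. It lay above by 0.21 for Vcl and 0.15 for Acta2, and below by a log2 difference of -0.75 for Myl9. Over all tested genes that difference had a median of -0.0058, and the value of Cyr61 was at percentile 99.2 and that of Actb at 93.8. The cause of this was not tested.

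Levels per kilobase of transcript placed Actg1 first at a mean of 222 CPM per kb over the 6 libraries, then Actb at 135. Srf followed at 7.60 and Vcl at 4.20, and below them lay Cyr61 at 2.73, Ctgf at 2.17, Tagln at 1.50, Acta2 at 0.859, Ankrd1 at 0.777 and Myl9 at 0.381 CPM per kb. The ranges over libraries overlapped between all neighbours in this order but Actb and Srf, and Srf and Vcl. Of the length-scaled level of the 6 actin genes, Actg1 held 60.2 to 63.7% and Actb 35.8 to 39.4% in each library. Acta2 held 0.275% ± 0.089 in LCS against 0.202% ± 0.0645 for WT (SD, n = 3), with p = 0.3 by a two-sided exact permutation test that cannot go below 0.1. Of these 6 actin genes 4 were tested and none passed (median log2 fold change 0.54). Acta1, the skeletal muscle actin gene, had a log2 fold change of 0.67 (SE 0.47, edgeR adjusted p = 0.402), and Actc1 and Actg2, of heart and enteric smooth muscle, had too few counts to be tested.

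The upstream regulators were followed next, with lists chosen for their role. Counts below made without WT replicate 1 come from the fit that called 12.5% of all genes higher and 7.68% lower. Of 10 genes that act with or on SRF, 9 were tested and none passed (median -0.16). The MRTF genes Mkl1 and Mkl2 were at 0.48 (SE 0.30) and -0.16 (SE 0.17), and Myocd, the muscle coactivator, was not tested, at means of 0.047 CPM in LCS and 0.052 in WT. The smallest p belonged to Scai, which codes for a repressor of MRTF, at 13.5, 17.2 and 6.54 CPM in LCS and 18.6, 37.7 and 49.4 CPM in WT. All LCS values of Scai lay below all WT values, which held for 12.0% of tested genes. Its log2 fold change was -1.50 (SE 0.39, edgeR adjusted p = 0.0746). Fhl2, itself an SRF target and cofactor, was at 0.84, the SRF partner Elk1 at -0.43 and the actin regulator Phactr4 at -0.34 (edgeR adjusted p = 0.141, 0.166 and 0.191). Mkl1 and Fhl2 were called higher without WT replicate 1 and Scai lower, the latter at -1.80 (edgeR adjusted p = 0.004).

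Of 26 genes of YAP and the Hippo kinase cascade, which restrains YAP, none passed (median -0.12). Yap1 was at -0.13 (SE 0.25) and Wwtr1, which codes for TAZ, at -0.13 (SE 0.21). Tead1, the most abundant of the TEAD genes, had 28.7, 33.7 and 23.3 CPM in LCS and 37.6, 57.2 and 62.2 CPM in WT. The Tead1 values did not overlap, with LCS below WT as for 12.0% of tested genes. The log2 fold change was -0.87 (SE 0.21, edgeR adjusted p = 0.0648). The kinase genes Lats1 and Taok1 and the kinase activator gene Mob1b were at -0.60, -0.67 and -1.10 (edgeR adjusted p = 0.0907, 0.12 and 0.137). These 4 genes were called lower without WT replicate 1, and none of the list higher. Transcripts of Tead1, Lats1, Taok1 and Scai are long (7209 to 12409 nt), and with an offset for transcript length their log2 fold changes were -0.55, -0.32, -0.35 and -1.19.

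Like the members, other targets of the same factors were not called with all libraries, but the list medians lay below the members' 0.37. Of 25 tested further SRF and MRTF targets none passed (median 0.18). In that list the smooth muscle myosin gene Myh11 was at 0.95 (SE 0.33), the desmin gene Des at 1.29 (SE 0.53), the PDZ and LIM domain gene Pdlim5 at -0.44 and the caldesmon gene Cald1 at -0.39, with edgeR adjusted p of 0.135 to 0.198. On leaving out WT replicate 1 the list had 6 of 25 genes called higher and 0 lower, against 12.5% and 7.68% of all genes. Of 21 tested further YAP targets none passed (median -0.01); Rbms3, Amotl2, Dock5 and Nuak2 had the smallest p, at -0.50, 0.40, -0.36 and 0.40. Amotl2 and Gadd45a were called higher without WT replicate 1.

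Immediate early genes, which SRF drives together with TCF factors within minutes of a stimulus, numbered 10 with Srf, and none passed (median -0.06). Egr3 was at -1.11, Ier2 at 0.71, Mcl1 at -0.14 and Junb at 0.62. Junb had 32.3, 46.9 and 49.4 CPM in LCS and 64.9, 11.7 and 6.74 CPM in WT, so its WT libraries lay on both sides of all LCS libraries, as for Cyr61. Over the 10 genes WT replicate 1 lay above the other WT libraries by a median of 1.17 on the log2 scale, against 0.86 over the members. Without it Egr1, Fos, Ier2 and Junb were called higher, of which Egr1 and Fos are named after their values were seen.

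Among genes for proteins that bind actin or drive its assembly, Tmsb4x rose and Wasl fell. Tmsb4x, which codes for thymosin beta 4, a protein that binds actin monomers, had 218, 184 and 253 CPM in LCS and 63.4, 89.0 and 79.9 CPM in WT. All LCS values lay above all WT values, as for 14.6% of tested genes, and Tmsb4x rose 2.82-fold (log2 1.50, SE 0.18, edgeR adjusted p = 0.00399). Wasl, which codes for N-WASP, an activator of actin branching, had 32.6, 35.2 and 31.7 CPM in LCS and 49.1, 50.2 and 56.9 CPM in WT. Wasl fell by 0.65 on the log2 scale (SE 0.14, edgeR adjusted p = 0.0419). Its call was lost on leaving out any library other than WT replicate 1 (edgeR adjusted p = 0.0568 to 0.184). Without WT replicate 1, Tmsb4x was at 1.37 and Wasl at -0.69 (edgeR adjusted p = 0.00107 and 0.0104). Tmsb10 and Actr2 were at 0.82 and -0.67 (edgeR adjusted p = 0.0912 and 0.103).

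Of 10 myosin light chain genes 6 were tested (median 0.41), and Myl6 rose, which codes for the essential light chain of nonmuscle and smooth muscle myosin. Myl6 had 382, 370.1 and 463 CPM in LCS and 230.3, 247 and 244 CPM in WT. The groups did not overlap, with LCS above WT as for 14.6% of tested genes. Myl6 rose 1.68-fold (log2 0.75, SE 0.15, edgeR adjusted p = 0.0336), and the call was lost without LCS replicate 1 or 3 or WT replicate 2 or 3 (edgeR adjusted p = 0.0997 to 0.161). It was at 0.72 without WT replicate 1 (edgeR adjusted p = 0.014). Myl12a and Myl12b, which code for nonmuscle regulatory light chains, were at 0.37 and 0.25, Myl6b at 0.46 and Myl7 at -0.072. Transcripts of Tmsb4x (768 nt) and Myl6 (692 nt) are short. With an offset for length Tmsb4x was at 0.72 (edgeR adjusted p = 0.158), Wasl at -0.51 (0.157) and Myl6 at -0.070 (0.81), and no gene of the pathway lists was called.

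Of 20 focal adhesion genes, which join the cytoskeleton to the matrix, none passed (median -0.02). The integrin-linked kinase gene Ilk was at 0.65, and the integrin genes Itgav and Itga6 and the adaptor gene Lims1 were at -0.54, -0.30 and -0.44. Of 10 lamin and nuclear envelope genes none passed (median -0.0015): Lmna was at 0.89, the lamin B1 gene Lmnb1 at -0.47, Tmpo at -0.32 and the nesprin gene Syne1 at -0.32. Without WT replicate 1, Zyx, Ilk and Bcar1 of the first list and Lmna of the second were called higher, Lmna at 1.49 (edgeR adjusted p = 0.0009). In the 10 pathway lists together, 151 genes other than the members were tested, of which 2 were called higher and 1 lower. Over all tested genes 2.06% were called higher and 0.144% lower.

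**Figure D3:**
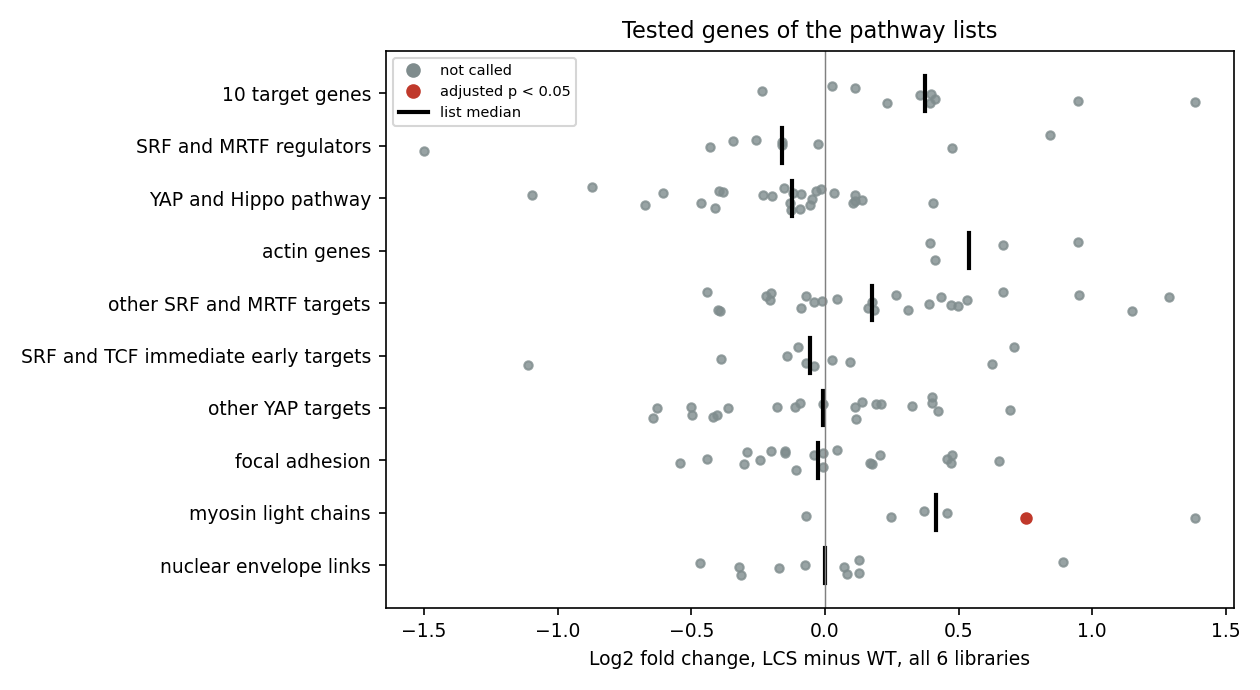
Log2 fold change (LCS minus WT, all 6 libraries) of the 10 target genes and of each tested gene of 9 pathway lists, with called genes in red and list medians as black bars. The called gene is Myl6 at 0.75, and the target genes have a median of 0.37.

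Cells other than endocrine cells can carry these transcripts, so their markers are given beside the members. Smooth muscle and pericyte markers summed to 46.3 to 61.7 CPM in LCS and 41.3 to 55.7 in WT (12 genes, 10 tested, none called). Cnn1 and Lmod1 were too low to be tested. Cnn1 had 0.035, 0 and 0.128 CPM in LCS and 0 in all WT libraries. Lmod1 was at means of 0.120 CPM in LCS and 0.116 in WT. Fibroblast and stellate markers summed to 82.3 to 101 CPM in LCS, to 146 in WT replicate 1 and to 66.8 and 79.8 in the other WT libraries (11 tested, none called). Endothelial markers summed to 259 to 299 CPM in LCS and 196 to 264 in WT (12 tested, none called). Duct markers summed to 598 to 703 CPM in LCS, to 694 in WT replicate 1 and to 371 and 456 in the other WT libraries (7 tested, none called). In all 4 of these lists WT replicate 1 had the highest sum of the WT libraries, as it did for the members other than Acta2 and Myl9. WT replicate 1 was also the highest WT library for macrophage markers (67.7 CPM) and delta and PP cell markers (2805 CPM), but not for acinar, beta cell or alpha cell markers. Without it Des was called higher in the first list, Plvap, Eng and Egfl7 in the endothelial list, Krt7 in the duct list and none in the fibroblast list. Their part in the members' values was not tested.

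In other marker lists the summed levels did not overlap between genotypes. Acinar markers summed to 536 to 922 CPM in LCS and 181 to 273 in WT. Of 13 tested acinar genes 12 were called higher, against 2.06% of all tested genes. Macrophage markers summed to 82.2 to 98.6 CPM in LCS and 55.6 to 67.7 in WT, with Lyz2 called higher among 10. At an unadjusted p under 0.05, 3 macrophage markers were higher and 0 lower, and the list median was 0.17. Adgre1 of this list went the other way, at -0.62 (edgeR adjusted p = 0.257). Delta and PP cell markers summed to 4990 to 8312 CPM in LCS and 1145 to 2805 in WT, with Rbp4 and Ppy of 5 called higher, and alpha cell markers to 16366 to 21726 and 12483 to 16359 CPM, with Gc of 7 called higher. Beta cell markers summed to 176163 CPM or more in LCS and 173574 or less in WT, with none of 12 called (median log2 fold change 0.03). Most of that sum was insulin, Ins2 having 135420 CPM in LCS and 87436 in WT, while Ero1lb, Slc2a2 and G6pc2 were at -0.69, -0.77 and -0.44 (edgeR adjusted p = 0.0692, 0.134 and 0.183). At an unadjusted p under 0.05, 1 beta cell marker was higher and 3 were lower, and without WT replicate 1, 2 were called higher and 4 lower. For each of these 5 sums p was 0.1 by the two-sided exact permutation test, which allows no smaller p. With the offset for transcript length 5 acinar markers were called higher, against 0.176% of all genes in that fit. Lyz2, Rbp4, Ppy and Gc were then not called (edgeR adjusted p = 0.152, 0.215, 0.2 and 0.236). The log2 fold change of Ins2 was 0.63 in the main test and -0.31 with that offset. Of 7 red cell markers none was tested, and all globin genes were at 0 in every library. Acta2, which was not called, was lowest among LCS libraries in replicate 2, where acinar markers were highest. Whether acinar cells bear on the level of Acta2 was not tested.

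**Figure D4:**
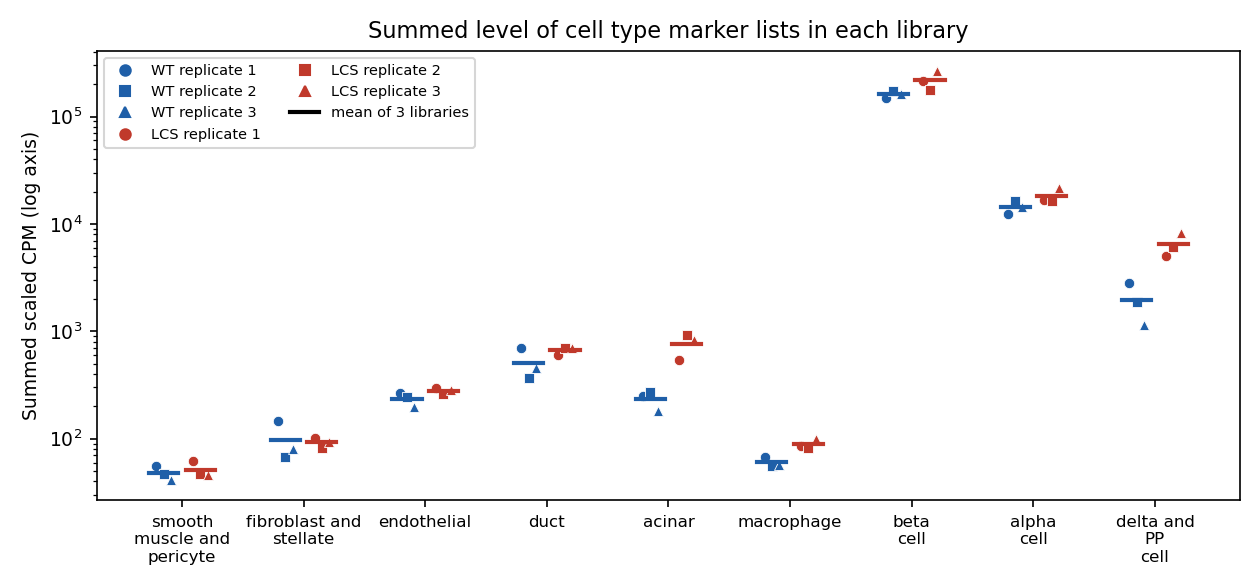
Summed scaled CPM (log axis) of 9 cell type marker lists per library (WT blue, LCS red), with a bar at the mean of 3 libraries. For fibroblast and duct markers WT replicate 1 (blue circle, 146 and 694 CPM) lies above the other WT libraries, and acinar markers lie at 536 CPM or more in LCS and at 273 or less in WT.

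Genes with profiles most like those of the members were named by the root mean square difference between log2 CPM profiles, each centred on its own mean, over the 6 libraries and 9688 genes of at least 5 CPM. Nearest to Actb was Ppp1r15a, a stress-induced phosphatase subunit gene, at 0.0488, and nearest to Actg1 was Ubac2 at 0.0357. Nearest to Cyr61 was Tgfb1, which codes for transforming growth factor beta 1, at 0.163, and nearest to Ankrd1 was Igfbp4 at 0.147. For Srf the nearest was Unk at 0.0187, for Vcl Slc35a2 at 0.0398, for Ctgf Unc5a at 0.0872, for Acta2 Pla2g12a at 0.0999, for Tagln Gpc1 at 0.199 and for Myl9 Fgb at 0.336. The distance was largest for Myl9, which was high in 1 library only. Over so few libraries close profiles arise easily, so nearness is a description.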

How the data were processed

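Messenger RNA was measured in 3 LCS and 3 WT islet libraries. The deposited values were raw counts per gene, whole numbers in 1 table of 24407 genes with symbols and NCBI gene numbers. The submitters' processing notes name mm9 as the build and list HTSeq 0.9.0, Bowtie2 2.2.9, TopHat2 2.1.1, bcl2fastq 2.20 and FastQC without roles. For annotation and strand setting, nothing is given in the sources used here, so antisense and overlapping genes may share reads. Per the labels' protocols the kit was a stranded TruSeq kit. Groups came from the labels, with replicates numbered in accession order and no pairing or batch labelled.

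The test was that of edgeR 4.0.16 under R 4.3.3 (filterByExpr, TMM, quasi-likelihood test, genotype as the only term, Benjamini-Hochberg adjustment over 14539 genes). Standard errors are the log2 fold change over the root of F. CPM were scaled by TMM, and log2 CPM used a prior count of 2. The common biological coefficient of variation was 21.2%. Lengths were those of the longest RefSeq-linked GENCODE M21 transcript, or the median over a gene's transcripts where none was linked to RefSeq. Alternatives were DESeq2 1.42.0 size factors and Wald test, limma 3.58.1 voom (plain, and weighting each sample by quality), 2 other filters, no ribosomal rows, a loess offset (span 0.5) for length among protein-coding genes, and leaving out each library. The main edgeR test was also run on simulated counts with known fold changes. Those counts had the same dispersion for every gene and neither an outlying library nor a length trend, so they do not cover these features.

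The members, the 20 other gene lists and the tests were chosen with earlier results of these data known. Named were the members, Lmna, from each list up to 4 genes with the smallest p (all actin and tested myosin light chain genes), and up to 3 genes most like each member, of which the nearest is given. Yap1, Wwtr1, Mkl1, Mkl2 and Myocd were named for their role. Members of small lists called without WT replicate 1 were named after their values were seen. The result of 1 pathway list as a whole is not reported here. Figures were drawn with matplotlib 3.10.9.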

Additional observations from a re-analysis of the deposited data

How the results depend on the processing

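No member was called in either direction under DESeq2 size factors, the DESeq2 Wald test (9 members, since Myl9 had no adjusted p), voom without weights, no filter, a minimum of 10 CPM (which left 4 members), without the ribosomal rows (9 members) or with the length offset. Voom with sample quality weights called 6 higher: Actb 0.72, Actg1 0.58, Acta2 1.10, Tagln 1.05, Ctgf 0.73 and Cyr61 1.03 (limma adjusted p = 0.00232 to 0.0213), in a fit that called 19.9% of all genes higher and 16.3% lower. Leaving out each library gave 0 to 3 members called higher. The log2 fold changes ranged from -0.12 to 0.23 for Srf, 0.22 to 0.81 for Actb, 0.23 to 0.69 for Actg1, -0.0032 to 1.02 for Tagln, -0.091 to 1.18 for Cyr61, -0.16 to 0.85 for Ankrd1, 0.73 to 1.25 for Acta2, 0.14 to 0.79 for Ctgf, -0.29 to -0.16 for Vcl and 0.12 to 1.83 for Myl9. With the length offset Srf was at -0.0091 and Ankrd1 at -0.042, and Myl6 (-0.070), Myl6b (-0.13), Yap1 (0.0021), Wwtr1 (0.050) and Mkl2 (0.15) changed sign as well. With the weights Yap1 (0.02), Wwtr1 (0.078) and Myl7 (0.045) changed sign. Leaving out single libraries gave -0.20 to 0.21 for Myl7, -0.24 to 0.11 for Wwtr1 and -0.26 to 0.11 for Yap1.

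Across all genes 300 were higher and 21 lower. The counts were 937 and 571 by DESeq2, 2887 and 2370 with the weights, 560 and 126 without a filter, 24 and 3 with the length offset, and 81 to 1857 and 1 to 1142 on leaving out each library (most without WT replicate 1). In the pathway lists without the members, 2 higher and 1 lower became 5 and 8 by DESeq2, 40 and 23 with the weights, 3 lower without a filter, 0 and 0 with the length offset, and 1 to 26 and 0 to 10 on leaving out each library. Marker sums and the Acta2 share moved by less than 1 SD in the alternatives run for them. Leaving out 1 library still turned the sign of the log2 ratio of summed fibroblast markers (-0.074 with all libraries, -0.28 without WT replicate 2, 0.34 without WT replicate 1, 0.0041 without LCS replicate 2). It turned that of smooth muscle markers as well (0.11 with all, -0.042 without LCS replicate 1). The Acta2 share difference of 0.0734 percentage points ranged from 0.0437 (without WT replicate 1) to 0.125 (without LCS replicate 2). Counts of 7 to 93 limit Acta2 and Myl9. Beyond the construction of each alternative (fewer genes, fewer samples, down-weighted libraries), the cause of these shifts was not tested. No paired analysis was possible because the labels give no replicate number that pairs libraries.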
